A study of Mus musculus with 8 samples.

Results

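The genes described here are 7 CXC chemokines, Cxcl1, Cxcl2, Cxcl9, Cxcl10, Cxcl13, Cxcl14 and Cxcl16, and the chemokine receptor gene Cxcr4. They were chosen by name, with earlier results of these data known. All 8 were matched by symbol among the 41388 gene identifiers of the count files. Of the 8, 6 had enough counts for a test across genes, as did 12002 genes in all, and Cxcl1 and Cxcl14 did not. Counts came from RNA-seq of sorted microglia, the macrophages that live in brain and spinal cord tissue, in 8 libraries. The NMO CD11c+ group (n = 2) holds CD11c positive microglia of mice with neuromyelitis optica (NMO), an inflammation mainly of optic nerve and spinal cord. The NMO CD11c- group (n = 3) holds CD11c negative microglia of such mice. The control group (n = 3) holds microglia of control mice. The strain background was C57BL/6 in every group, the design text speaks of adult mice, and the cells were isolated by CD11b, CD45 and CD11c. How NMO was induced, and how many mice gave each library, is not given in the sources used here, so p-values measure the spread between these libraries only. For the controls, one label reads CD11C negative and the title reads total microglia of unmanipulated mice. The controls carry library numbers 21 to 23 and the NMO libraries numbers 7 to 12. Preparation and disease cannot be told apart in comparisons with controls.

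Chemokines are small secreted proteins that direct the movement of cells carrying matching receptors, and CXC chemokines are named for a pair of cysteines separated by a single residue. Cxcl1 and Cxcl2 act on Cxcr2 and draw neutrophils, and their genes are classical targets of NF-kB. Cxcl9 and Cxcl10 act on Cxcr3 of activated T cells and NK cells and are induced by interferons. Cxcl13 acts on Cxcr5 and guides B cells. Cxcl14 is expressed by many epithelial tissues. Cxcl16 is made as a membrane protein that binds Cxcr6 and is shed by the proteases Adam10 and Adam17. Cxcr4 is the receptor of Cxcl12 and retains leukocytes where that ligand is made, neutrophils in bone marrow among them.

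Of the 8 genes, 5 lie on chromosome 5 in GRCm38 (GENCODE M21). Cxcl1 (ENSMUSG00000029380) runs from 90891241 to 90893115 and Cxcl2 (ENSMUSG00000058427) from 90903871 to 90905938, with 10.8 kb between them. Cxcl9 (ENSMUSG00000029417) runs from 92321347 to 92328079 and Cxcl10 (ENSMUSG00000034855) from 92346638 to 92348889, with 18.6 kb between them. Cxcl13 (ENSMUSG00000023078) runs from 95956951 to 95961068. Cxcl14 (ENSMUSG00000021508) lies on chromosome 13 from 56288643 to 56296551, Cxcl16 (ENSMUSG00000018920) on chromosome 11 from 70453983 to 70459984, and Cxcr4 (ENSMUSG00000045382) on chromosome 1 from 128588199 to 128592293. Exons of Cxcl10 overlap those of Art3 and exons of Cxcl16 overlap those of Zmynd15, each on the opposite strand. The strand setting of the counting is not given in the sources used here, so reads of the overlapping parts cannot be told apart.

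The 250 bases before the start were found for 7 of the 8 genes in RefSeq's GRCm38.p6 table, and Cxcl16 was not in it. The 4 shown are those of the neighbouring pairs, because their members differed in level from each other across the groups. Capitals mark matches to any of 3 motifs searched on both strands, the ISRE core (TTTC, any 2 bases, TTTC), the GAS motif TTCNNNGAA and the NF-kB consensus. These are the textbook elements for type I interferon, interferon gamma and NF-kB. Cxcl1 is from chr5:90890995-90891244 and Cxcl2 from chr5:90903649-90903898, both on the plus strand. Cxcl9 is from chr5:92328080-92328329 and Cxcl10 from chr5:92348890-92349139, both on the minus strand.
Cxcl1: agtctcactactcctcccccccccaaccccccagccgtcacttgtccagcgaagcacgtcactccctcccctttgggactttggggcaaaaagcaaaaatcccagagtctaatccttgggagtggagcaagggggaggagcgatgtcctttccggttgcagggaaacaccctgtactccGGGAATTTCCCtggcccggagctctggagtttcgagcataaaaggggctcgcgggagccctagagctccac
Cxcl2: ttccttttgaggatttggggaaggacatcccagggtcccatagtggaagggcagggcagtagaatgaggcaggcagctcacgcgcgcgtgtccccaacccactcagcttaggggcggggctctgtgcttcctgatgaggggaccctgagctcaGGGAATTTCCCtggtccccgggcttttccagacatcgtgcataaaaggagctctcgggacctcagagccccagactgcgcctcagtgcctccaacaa
Cxcl9: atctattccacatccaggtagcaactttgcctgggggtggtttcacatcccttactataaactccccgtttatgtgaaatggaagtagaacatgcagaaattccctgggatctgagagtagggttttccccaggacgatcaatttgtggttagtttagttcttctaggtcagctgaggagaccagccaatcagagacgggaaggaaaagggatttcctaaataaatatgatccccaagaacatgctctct
Cxcl10: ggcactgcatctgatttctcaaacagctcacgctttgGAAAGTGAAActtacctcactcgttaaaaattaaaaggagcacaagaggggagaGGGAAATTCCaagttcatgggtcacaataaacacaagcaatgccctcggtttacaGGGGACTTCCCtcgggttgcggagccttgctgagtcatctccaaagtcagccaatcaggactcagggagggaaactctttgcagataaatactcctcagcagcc

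Cxcl1 and Cxcl2 share the stretch GGGAATTTCCC, which matches the NF-kB consensus on both strands 1 base apart. It lies 71 to 61 bases before the RefSeq start of Cxcl1 and 97 to 87 before that of Cxcl2. For both genes the RefSeq start lies inside the GENCODE span given above, so these distances do not count from the GENCODE starts. Cxcl10 has an ISRE core 213 to 204 bases before its start and NF-kB matches at 159 to 150 and, as an overlapping pair, at 104 to 94. In Cxcl9, Cxcl13 and Cxcr4 none of the 3 motifs was found in this window. Cxcl14 has a GAS motif (191 to 183) and an ISRE core (172 to 163). Over 32851 promoters of the same length, the ISRE core was in 2.98%, the GAS motif in 7.02% and the NF-kB consensus in 7.25%. A match is a description of the letters, and whether a factor binds there was not measured.

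**Figure D1:**
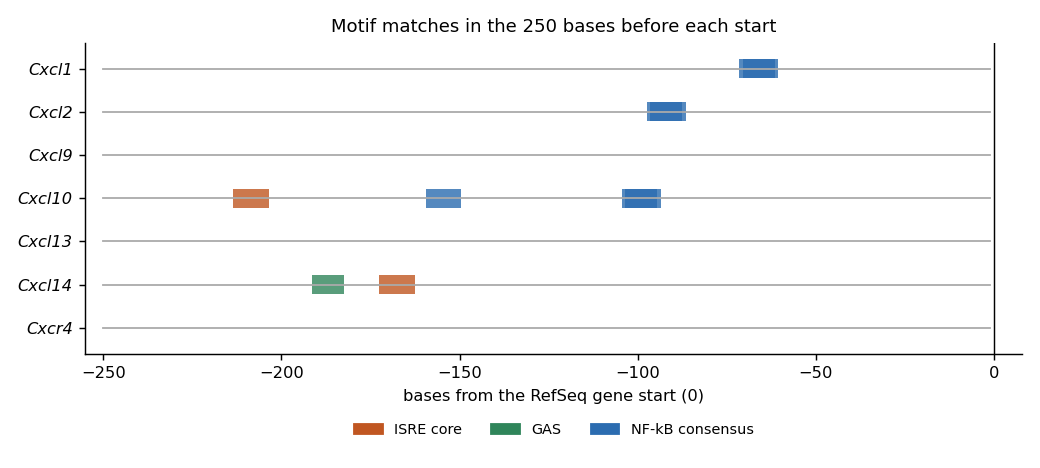
Motif matches in the 250 bases before the start of 7 genes. The horizontal axis is the distance in bases from the RefSeq gene start, each grey line is 1 gene, and boxes mark matches on either strand. Cxcl10 has an ISRE core and NF-kB matches, Cxcl1 and Cxcl2 have an NF-kB match each, and Cxcl9, Cxcl13 and Cxcr4 have none.

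The libraries hold 4943207 to 9246061 counts. The CD11c gene Itgax had a mean ± SD of 185 ± 4.84 CPM (counts per 1000000 counts of the scaled library) in NMO CD11c+, 38.9 ± 3.04 in NMO CD11c- and 31.2 ± 0.809 in control cells. All 8 microglia markers were detected in every library. Their sum was 38547 to 42296 CPM in control, 31278 to 38715 in NMO CD11c- and 30413 to 31626 in NMO CD11c+ libraries, and 3 of the 8 were called lower in NMO CD11c+ than in control cells (P2ry12, Cx3cr1 and Siglech). The sum over 12 neutrophil markers was 17.4 and 21.7 CPM for CD11c+, between 2224 and 11616 for NMO CD11c- and between 924 and 1911 for control libraries, and Ly6g was at 0 counts in both CD11c+ libraries. NMO CD11c- replicate 2 held the 11616, against 2224 and 3283 in the others of its group. CD11c+ replicate 1 stands apart in GC content. For each gene, log2 CPM was taken relative to its mean over the 8 libraries. Over genes, the Spearman correlation of this difference with GC content was 0.592 in CD11c+ replicate 1. In the other libraries it lay between -0.299 and -0.0378. The differences of a gene sum to 0 over the libraries, so these values depend on each other. The members' GC content was 41.0% to 55.4%. T cell and NK cell markers summed to at most 2.26 and 0.392 CPM, and Cd3e, Cd3g, Ncr1 and Klre1 were at 0 in every library.

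Against controls, 4 of the 8 genes were higher in NMO microglia of both subsets, Cxcl9, Cxcl10, Cxcl13 and Cxcl16, and none was lower. The test was edgeR's quasi-likelihood test with Benjamini-Hochberg adjustment over all 12002 genes, called under 0.05. Of all genes tested 3.72% were called in NMO CD11c- cells (360 higher and 86 lower) and 10.2% in NMO CD11c+ cells (822 higher and 403 lower). Cxcl9 and Cxcl13 had fewer than 10 counts in each control library and so passed the low-count filter through their NMO libraries. Both comparisons use the same 3 control libraries. Markers of dendritic cells, 6 genes, summed to 7.70 to 12.1 CPM in control, 14.96 to 19.0 in NMO CD11c- and 17.3 to 18.4 in NMO CD11c+ libraries. In each library 5 or 6 of the 6 were detected. Of the 2 tested, Zbtb46 (means of 6.70, 7.96 and 7.36 CPM in the same order) was called in neither subset. Flt3 (1.70, 5.92 and 8.18) was called higher in both, and it too passed the low-count filter through its NMO libraries. Xcr1 (0.263, 1.29 and 0.543), Clec9a (0.227, 0.995 and 0.645) and Ccr7 (0, 0.149 and 0.366) had few counts and were not tested. Cd209a, also untested, was at 0.461, 0.0490 and 0.733 CPM. Markers of endothelial cells, 5 genes, summed to 12.9 to 14.2, 17.2 to 18.4 and 25.4 to 25.5 CPM in the same order. The sum rose mostly through Kdr (means of 9.42, 13.7 and 18.8 CPM) and in part through Flt1 (1.246, 1.596 and 3.63). Cdh5 did not rise (2.75, 2.34 and 2.69), and Cldn5 and Tek had few counts and were not tested. The part of dendritic or endothelial cells in the levels of the 4 genes was not tested. In such bulk samples a change in the number of cells that express a gene and a change in the RNA per cell cannot be told apart.

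Cxcl10, the interferon-induced attractant of T cells, was at 5.14, 4.61 and 7.72 CPM in control replicates 1 to 3. It was at 39.4, 67.5 and 46.9 CPM in the NMO CD11c- libraries and at 34.1 and 79.1 CPM in the NMO CD11c+ libraries. Every NMO library was above every control, and the ranges of the subsets overlapped. The log2 fold change was 3.15 (SE 0.350, adjusted p = 0.00107) for NMO CD11c- and 3.30 (SE 0.373, adjusted p = 6.94e-04) for NMO CD11c+ against control. Both calls held without each library in turn (adjusted p at most 0.0127 and 0.00692). Art3, which overlaps Cxcl10 on the opposite strand, had a mean of 2.03 CPM in NMO CD11c-, 5.47 in NMO CD11c+ and 0.740 in control cells.

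Cxcl9, its neighbour on chromosome 5 and a ligand of the same receptor, was at 1.10, 0.857 and 0.785 CPM in the controls, from 6 to 9 counts each. It was at 4.49, 5.72 and 2.79 CPM in NMO CD11c- cells and at 5.11 and 11.3 CPM in NMO CD11c+ cells. The NMO and control ranges did not overlap. Against control, Cxcl9 rose by 2.22 on the log2 scale in NMO CD11c- cells (SE 0.428, adjusted p = 0.0200) and by 3.15 in NMO CD11c+ cells (SE 0.443, adjusted p = 0.00210). The first call was lost without NMO CD11c- replicate 1 (adjusted p = 0.0593) or 2 (0.0834) or control replicate 1 (0.0756), 2 (0.0971) or 3 (0.0929), and the second held without each library.

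Cxcl13, the B cell attractant, had 0, 1 and 2 counts in the controls. It had 14, 19 and 13 counts in NMO CD11c- and 11 and 31 in NMO CD11c+ cells, which is 2.09, 2.86 and 1.91 CPM and 2.25 and 5.46 CPM. The gene was thus near the limit of detection in controls and low but present in every NMO library. With only 3 control counts the difference is given as a ratio of counts, with a 95% interval that covers counting error only. It was 19.2 (6.16 to 96.3) for NMO CD11c- (adjusted p = 0.0112 by edgeR) and 33.3 (10.6 to 168) for NMO CD11c+ (adjusted p = 0.00242). The first call was lost without control replicate 1 (adjusted p = 0.0518) or 2 (0.0654). B cell markers summed to 21.2 to 29.5 CPM in controls, 29.4 to 32.0 in NMO CD11c- and 25.4 to 33.3 in NMO CD11c+ cells, and Pax5 was at 0 in every library.

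Cxcl16, the membrane-bound chemokine, was at 46.0, 47.3 and 41.6 CPM in controls, 86.2, 102 and 93.7 CPM in NMO CD11c- and 135 and 162 CPM in NMO CD11c+ cells. The 3 groups did not overlap. The log2 fold change against control was 1.06 (SE 0.110, adjusted p = 7.52e-04) in NMO CD11c- and 1.73 (SE 0.120, adjusted p = 4.13e-05) in NMO CD11c+ cells, and both calls held without each library. Zmynd15, on the opposite strand, was at 16.2 ± 1.84, 45.9 ± 9.39 and 71.3 ± 4.36 CPM in control, NMO CD11c- and NMO CD11c+ cells and was called higher in both NMO groups (log2 fold change 1.501, adjusted p = 7.76e-04, and 2.14, adjusted p = 8.47e-05). Its part in the counts of Cxcl16 was not tested.

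**Figure D2:**
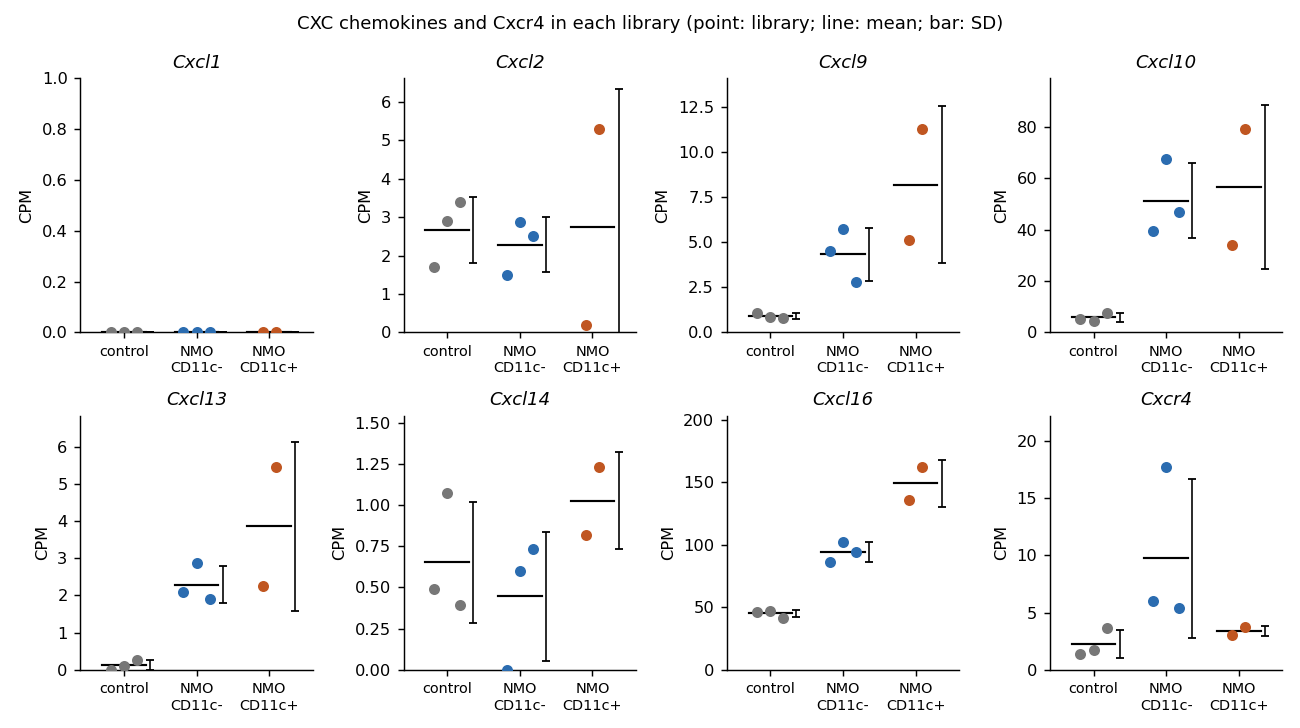
CPM of each gene in each library, by group. Points are libraries in replicate order, lines are group means and bars are SD, which are cut at 0 where they would pass below it. Cxcl9, Cxcl10, Cxcl13 and Cxcl16 are higher in every NMO library than in any control, Cxcl1 is at 0 throughout, and the 2 CD11c+ libraries differ for Cxcl2 (0.204 and 5.29 CPM).

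The remaining chemokines did not pass. Cxcl2, a neutrophil attractant, was at 1.71, 2.89 and 3.40 CPM in controls, 1.496, 2.86 and 2.50 CPM in NMO CD11c- cells, and 0.204 and 5.29 CPM in NMO CD11c+ cells. The last pair comes from 1 and 30 counts, and it spans all other libraries. The log2 fold change was -0.22 (SE 0.647, adjusted p = 0.893) for NMO CD11c- and 0.09 (SE 0.728, adjusted p = 0.947) for NMO CD11c+ against control. Without CD11c+ replicate 2 the latter became -3.60 and was called (adjusted p = 0.0182). That fit rests on 1 count in the lone CD11c+ library, which is assumed to vary like the other groups, and over all genes it calls 2058 lower in place of 403. A list of 14 immediate-early and stress genes, which also respond to cell isolation, summed to 9364 CPM in CD11c+ replicate 1 and 37396 in replicate 2, 7453 to 19190 in NMO CD11c- and 22948 to 47387 in control libraries. Its part in the level of Cxcl2 was not tested.

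Cxcl1, which shares its receptor and its promoter stretch with Cxcl2, had 0 counts in all 8 libraries. Taking 3 counts as the limit, this allows 0.321 to 0.613 CPM depending on the library, so a lower level was not detectable at this depth. Cxcl14 had 0 to 10 counts per library and was not tested. Its mean was 0.651 ± 0.367 CPM in control, 0.446 ± 0.392 in NMO CD11c- and 1.03 ± 0.294 in NMO CD11c+ cells, and the groups overlapped.

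Cxcr4 was at 1.35, 1.71 and 3.66 CPM in controls, 5.99, 17.8 and 5.44 CPM in NMO CD11c- and 3.06 and 3.70 CPM in NMO CD11c+ cells. The NMO CD11c- libraries were above all others, and replicate 2 was far above the rest of its group. Against control the log2 fold change of NMO CD11c- cells was 2.13 (SE 0.515, adjusted p = 0.0517), just outside the threshold. It was 1.36 (adjusted p = 0.147) without NMO CD11c- replicate 2, and was called without replicate 3 (2.41, adjusted p = 0.0399) or without either CD11c+ library (adjusted p = 0.0336 and 0.0337). It was also called under upper-quartile scaling (0.0497), with GC and length correction (0.0346), with only the groups compared (0.0336), with no low-count filter (7.50e-08) and by DESeq2 (0.00182). In NMO CD11c+ cells it was 0.61 (SE 0.649, adjusted p = 0.563).

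NMO CD11c- replicate 2, the highest for Cxcr4, also had the highest neutrophil marker sum. Across the NMO CD11c- and control libraries the order of Cxcr4 followed that of the neutrophil sum, from control replicate 1 (924 CPM of markers) to NMO CD11c- replicate 2 (11616), with control replicate 3 at 1911 and NMO CD11c- replicate 3 at 2224 in between. The CD11c+ libraries, with 17.4 and 21.7 CPM of neutrophil markers, still had Cxcr4 at 3.06 and 3.70 CPM. Monocyte markers, 6 genes, moved alongside, at 13.7 and 18.5 CPM in CD11c+, 146 to 953 in NMO CD11c- and 72.5 to 147 in control libraries. Their part in the level of Cxcr4 was not tested.

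**Figure D3:**
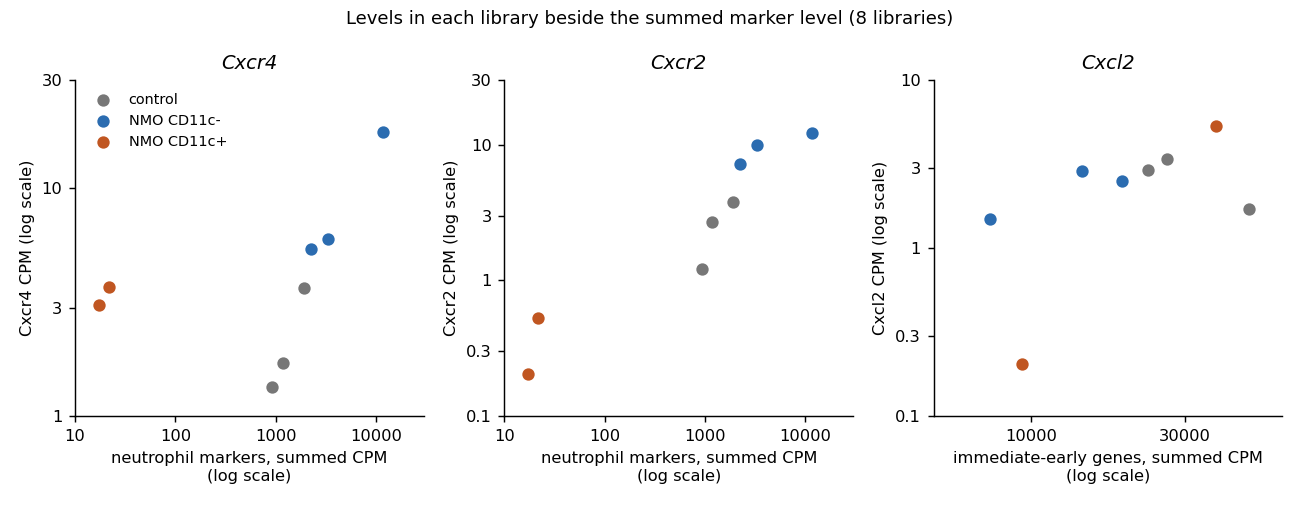
Cxcr4 and Cxcr2 against the summed CPM of 12 neutrophil markers, and Cxcl2 against that of 14 immediate-early and stress genes, 1 point per library, all axes logarithmic. Cxcr2 is lowest in the CD11c+ libraries (0.204 and 0.528 CPM), where the neutrophil sum is lowest, whereas Cxcr4 there is at 3.06 and 3.70 CPM.

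Between CD11c+ and CD11c- microglia of NMO mice, 0 of the 8 genes were called in either direction by edgeR's quasi-likelihood test. Of all 12002 genes 0.283% were called (12 higher and 22 lower). At an unadjusted p under 0.05 in that test there were 3, namely Cxcl9, Cxcl16 and Cxcr4, beside 1853 of all 12002 genes. DESeq2 called 1, Cxcl16, beside 95 higher and 164 lower over all genes. The difference for Cxcl16 was 0.66 on the log2 scale (SE 0.119, adjusted p = 0.0554), with both CD11c+ libraries above all CD11c- libraries. It was called under upper-quartile scaling (adjusted p = 0.0480), with a correction for GC content and length (0.0124), with no low-count filter (7.82e-04) and by DESeq2 (9.28e-04). It was also called without CD11c+ replicate 2 (0.0110), where the lone library is assumed to vary like the other groups and 1435 genes in place of 12 are called higher.

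For the other 5 tested genes no difference passed. On the log2 scale the difference was 0.93 for Cxcl9 (SE 0.386, adjusted p = 0.2995), for Cxcl13 0.77 (SE 0.481, adjusted p = 0.437), for Cxcl10 0.15 (SE 0.329, adjusted p = 0.836) and for Cxcl2 0.31 (SE 0.752, adjusted p = 0.854). In each of these, CD11c+ replicate 1 was below replicate 2. Without replicate 2 the values were 0.24, -0.03, -0.59 and -3.38 in the same order, and only that of Cxcl2 was called (adjusted p = 0.0342). Cxcr4 was the 1 gene on the negative side, at -1.51 (SE 0.595, adjusted p = 0.277), and was called lower with no low-count filter (adjusted p = 0.00339). Without NMO CD11c- replicate 2 it was -0.75 (adjusted p = 0.449).

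**Figure D4:**
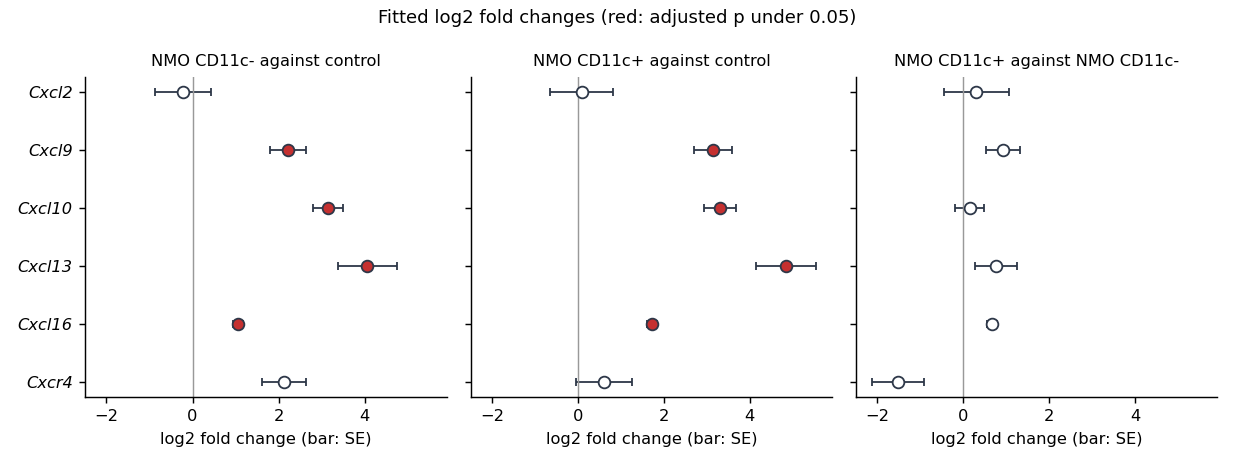
Fitted log2 fold changes of the 6 tested genes in the 3 comparisons, with SE as bars and red points for an adjusted p under 0.05. Cxcl9, Cxcl10, Cxcl13 and Cxcl16 are red against control in both subsets, and no point is red between the subsets. The values of Cxcl13 against control rest on 3 control counts and depend on the prior count of the fit.

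Levels were compared between genes as CPM per kilobase of the longest coding transcript, mean ± SD. In controls Cxcl16 (16.7 ± 1.12) was above Cxcl10 (4.30 ± 1.23), followed by Cxcl2 (1.44 ± 0.466) and Cxcr4 (1.24 ± 0.690), which overlapped. Cxcl14 (0.356 ± 0.201), Cxcl9 (0.316 ± 0.0573) and Cxcl13 (0.107 ± 0.114) were lower, with Cxcl14 overlapping each of the other two, and Cxcl1 was at 0. In NMO CD11c- cells Cxcl10 (37.9 ± 10.8) and Cxcl16 (34.8 ± 2.97) overlapped at the top. Cxcr4 (5.39 ± 3.86) was next, followed by Cxcl13 (1.99 ± 0.438), Cxcl9 (1.5 ± 0.509) and Cxcl2 (1.23 ± 0.380). Cxcl9 overlapped both Cxcl13 and Cxcl2, whereas Cxcl13 (1.66 to 2.49) lay above Cxcl2 (0.805 to 1.54). In NMO CD11c+ cells Cxcl16 (55.2 ± 7.07) and Cxcl10 (41.8 ± 23.5) again overlapped, above Cxcl13 (3.35 ± 1.98), Cxcl9 (2.84 ± 1.51), Cxcr4 (1.87 ± 0.249) and Cxcl2 (1.48 ± 1.93).

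Over the 8 libraries the log2 CPM of Cxcl10 and Cxcl13 had a Pearson correlation of 0.98, Cxcl9 and Cxcl16 of 0.96, and Cxcl9 and Cxcl10 of 0.93. Cxcl2 had correlations of -0.19 to 0.15 with the other 5 tested genes. These values share the group differences described above and the depth of the libraries. Among 9798 genes with a mean of at least 5 CPM, the 3 most alike to Cxcl10 were Ifit2 (0.99), Sp100 (0.99) and Rsad2 (0.99), and those most alike to Cxcl13 were Fgl2, Ccl5 and C920009B18Rik (each 0.99). For Cxcr4 they were Mmp25 (0.99), Xdh (0.99) and Atad2 (0.97), and for Cxcl16 Rps20, Mrpl24 and Rps10 (each 0.99). For Cxcl9 they were Ptchd1 (0.99), Uqcrh (0.99) and Mrpl24 (0.98), and for Cxcl2 Trmt5, Acp1 and Anapc10 (each 0.97).

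The other ligands of the family were scarce. Cxcl11, the further ligand of Cxcr3, is annotated as a polymorphic pseudogene and had 0, 1 and 0 counts in controls, 11, 13 and 6 in NMO CD11c- and 1 and 9 in NMO CD11c+ cells. It passed the low-count filter through its NMO libraries. The ratio of counts was 37.5 (interval for counting error only, 6.23 to 1529.65) for NMO CD11c- against control (adjusted p = 0.0275) and 23.8 (3.39 to 1032.76) for NMO CD11c+ (adjusted p = 0.0570). Cxcl12, the ligand of Cxcr4, had 1 to 8 counts per library and was not tested. Pf4, a platelet and macrophage chemokine, was at 2.08 ± 1.46, 3.23 ± 0.562 and 2.31 ± 0.776 CPM in control, NMO CD11c- and NMO CD11c+ cells and was called in no comparison. The ligand genes Cxcl5, Cxcl15 and Ppbp and the decoy receptor gene Ackr1 were at 0 counts in every library.

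Among the other receptors, Cxcr2, the neutrophil receptor of Cxcl1 and Cxcl2, was at 1.22, 2.68 and 3.79 CPM in controls, 9.88, 12.2 and 7.20 CPM in NMO CD11c- and 0.204 and 0.528 CPM in NMO CD11c+ cells. The 3 groups did not overlap. Cxcr2 rose from control to NMO CD11c- cells by 1.93 on the log2 scale (SE 0.367, adjusted p = 0.0193). It was lower in NMO CD11c+ than in NMO CD11c- cells (-4.63, SE 0.632, adjusted p = 0.0193) and than in control cells (-2.70, SE 0.714, adjusted p = 0.0411). Its order over the libraries followed that of the neutrophil marker sum given above, whose part in it was not tested.

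Ackr3, a scavenging receptor for Cxcl12, was at 2.32, 2.04 and 1.31 CPM in controls, 4.04, 2.71 and 2.94 CPM in NMO CD11c- and 5.11 and 6.17 CPM in NMO CD11c+ cells. It rose in NMO CD11c+ against control cells by 1.56 on the log2 scale (SE 0.331, adjusted p = 0.0173) and did not pass in NMO CD11c- cells (0.76, SE 0.310, adjusted p = 0.221). The receptors of the induced ligands were low, with Cxcr3 at 4 to 20 counts, Cxcr5 at 3 to 11 and Cxcr6 at 1 to 9 counts per library. Cxcr3 was called in no comparison (adjusted p at least 0.915), and Cxcr5 and Cxcr6 were not tested.

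Genes that are known to control the CXC chemokines were counted in lists beside them. Over all genes, 3.72% were called in NMO CD11c- and 10.2% in NMO CD11c+ cells against control. The lists were chosen with earlier results of these data known, so a count above these shares is no test of a list. Of 13 interferon receptor, kinase and transcription factor genes, 4 rose in NMO CD11c- against control cells and none fell, and the list's median log2 fold change was 0.11 against -0.00397 over all genes tested. Among them were the interferon regulatory factor Irf7 (15.6 ± 3.02 to 65.9 ± 13.2 CPM, log2 fold change 2.07, adjusted p = 1.63e-04), Stat2 (0.96) and Irf9 (0.40). In NMO CD11c+ cells 4 also rose, among them Irf7 (2.29), Stat2 (0.92) and the interferon gamma receptor chain Ifngr2 (0.53), with a list median of 0.25 against 0.00607. Irf9 was called in NMO CD11c- and not in NMO CD11c+ cells, and Ifngr2 the reverse. The difference between the subsets did not pass for either (adjusted p = 0.446 for Irf9 and 0.406 for Ifngr2).

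Of 14 NF-kB pathway genes and inducers, 1 rose in NMO CD11c- cells where 3.72% of all genes were called, the cytokine gene Il1b (4.68 ± 0.839 to 11.3 ± 1.87 CPM, log2 fold change 1.27, adjusted p = 0.0490). In NMO CD11c+ cells 4 rose where 10.2% of all genes were called, Relb (log2 fold change 1.06, adjusted p = 0.00117), Il1b (1.70, adjusted p = 0.0115), Tlr2 (0.90, adjusted p = 0.0132) and Nfkb2 (0.56, adjusted p = 0.00680). The endotoxin receptor gene Tlr4 fell there by 0.89 on the log2 scale (adjusted p = 0.0379). The list medians were -0.10 in NMO CD11c- and 0.25 in NMO CD11c+ cells. The sum of the immediate-early and stress genes also varied. It was 7453 to 19190 CPM in NMO CD11c-, 22948 to 47387 in control, and 9364 and 37396 in CD11c+ libraries. Its part in these medians was not tested. Between the subsets 0 of the 13 interferon and 0 of the 14 NF-kB genes were called, where 0.283% of all genes were.

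Of 24 tested genes of chemokine receptor signalling, 1 was called in NMO CD11c- cells, close to the 3.72% over all genes. It was the GTPase gene Rac2 (log2 fold change 0.60, adjusted p = 0.0433), with a list median of -0.05. The mean of Rac2 was 134 ± 7.59 CPM in control, 203 ± 43.2 in NMO CD11c- and 147 ± 1.64 in NMO CD11c+ cells. The neutrophil marker sum was also highest in the NMO CD11c- libraries, and its part in the level of Rac2 was not tested. In NMO CD11c+ cells 2 rose, Cd74 (1.69, adjusted p = 0.00108) and Mif (1.16, adjusted p = 0.0252), a receptor and its cytokine ligand that also binds Cxcr4. There 2 fell, Elmo1 (-0.72, adjusted p = 0.00964) and Gng2 (-0.64, adjusted p = 0.0185). Of 5 tested genes of chemokine shedding and anchoring, the heparan sulphate proteoglycan gene Sdc3 rose in both (1.31, adjusted p = 1.46e-04, and 1.55, adjusted p = 5.20e-05), and Mmp14 rose in NMO CD11c+ cells (0.81, adjusted p = 0.00516). Adam10 and Adam17, the sheddases of Cxcl16, did not pass, with means of 497 and 357 CPM in control, 509 and 381 in NMO CD11c- and 448 and 372 in NMO CD11c+ cells. Between the subsets 0 of the genes of these lists were called, beside 0.283% of all genes.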

How the data were processed

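Gene counts were used as deposited by the authors, raw whole-number counts in 1 file per library. Per the submitters' processing notes, STAR 2.3.11, HTSeq 0.5.4, edgeR 3.12.0 and the build GRCm38 were named. Which strand was counted, and from which annotation release, is not given in the sources used here. No deposited column was left unused (0). Symbols, positions and lengths came from GENCODE M21, which matched 40340 of 41388 identifiers (unmatched: 0.093% of counts). In R 4.3.3, edgeR 4.0.16 fitted all 8 libraries at once (filterByExpr by group, minimum count 10; TMM; glmQLFit and glmQLFTest) with contrasts of group means. CPM divide counts by the TMM-scaled sum of the tested genes. No replicate pair agreed within sampling noise. Chi-square per degree of freedom was 6.31 to 15.6 for control and NMO CD11c- pairs and 36.9 for the CD11c+ pair. Alternatives were RLE, upper-quartile and no scaling, no filter or a minimum count of 30, DESeq2 1.42.0, only the groups compared, a GC and length correction (99.5% of tested genes had both values) and each library left out. On simulated data, 4-fold changes were recovered for 84.4% of genes between the subsets, 95.9% for NMO CD11c- and 79.0% for NMO CD11c+ against control, and 2-fold changes for 58.2%, 75.9% and 63.1%. False calls were 7.77%, 8.22% and 6.25% of calls.

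The members and lists were chosen with earlier results of these data known. Named are the members, Itgax, other CXC ligands and receptors with at least 10 counts (those at 0 are listed), up to 5 called genes per list and comparison (1 is not reported here), and the 3 genes most alike to each member. Art3 and Zmynd15, and Adam10 and Adam17, were named for their overlap or role. Counting intervals are exact, at 95%.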

Additional observations from a re-analysis of the deposited data

How the results depend on the processing

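No paired analysis was possible because no label links libraries of the same mouse and the replicate numbers were given in the order of accession. Of 282 refitted fold changes, over 18 pairs of gene and comparison, 254 kept their direction and side of the threshold, 14 became called with the same sign, 7 lost the call and 7 changed sign, of which 2 (Cxcl2 without CD11c+ replicate 2) were called. The calls of Cxcl10 and Cxcl16 against control held under every alternative run, as did those of Cxcl9 and Cxcl13 for NMO CD11c+ (Cxcl13 and Cxcl2 had too few counts for the stricter filter). The sign changes came from leaving out 1 library. A lone CD11c+ library is assumed to vary like the other groups. Between the subsets, over the libraries left out, Cxcl2 ranged from -3.38 (without CD11c+ replicate 2) to 1.204, Cxcl10 from -0.59 (without CD11c+ replicate 2; -0.0074 without NMO CD11c- replicate 1) to 0.63, and Cxcl13 from -0.027 (without CD11c+ replicate 2) to 1.2497. For NMO CD11c- against control Cxcl2 ranged from -0.46 to 0.0078 (without NMO CD11c- replicate 1). For NMO CD11c+ against control it ranged from -3.60 (without CD11c+ replicate 2) to 0.98, with -0.15 without control replicate 1. The cause was not tested.

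Between the subsets the number of genes called higher went from 0 to 1 under upper-quartile scaling, with no low-count filter, with GC and length correction and by DESeq2, and ranged from 0 to 1 over the libraries left out. The number called lower went from 0 to 1 with no low-count filter and ranged from 0 to 1 over the libraries left out. For NMO CD11c- against control the number called higher ranged from 2 to 5 over the libraries left out, with 2 without control replicate 1 or 2. For NMO CD11c+ against control the number called lower ranged from 0 to 1.

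Over all genes the counts moved too. Between the subsets 12 higher and 22 lower became 1435 and 1581 without CD11c+ replicate 2 and 4 and 0 without replicate 1. They were 264 and 443 with no low-count filter, 95 and 164 by DESeq2, 50 and 54 with GC and length correction, and 2 and 3 with only the groups compared. For NMO CD11c- against control, 360 higher and 86 lower became 841 and 316 with no filter, 803 and 418 with only the groups compared, 570 and 330 with the correction and 545 and 134 by DESeq2, and ranged from 123 to 788 and from 18 to 405 over the libraries left out. For NMO CD11c+ against control, 822 and 403 became 1032 and 1083 with no filter, 466 and 161 with only the groups compared and 929 and 640 by DESeq2, and ranged from 385 to 2019 and from 102 to 2058 over the libraries left out. Depth limits Cxcl1, Cxcl2, Cxcl13, Cxcl14 and Cxcl11, with at most 31 counts in any library.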
